A study of Homo sapiens with 30 samples.

Results

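HMOX1 and 9 further genes of heme and iron handling (BLVRA, BLVRB, FTH1, FTL, TFRC, SLC40A1, BACH1, FECH and ALAS1) were followed through 30 RNA sequencing libraries of SW1783, a human astrocytoma cell line. These 10 genes are 10 of the 60675 gene entries in the count table. HMOX1 was chosen on its high level at the highest extract concentration, which was already known. The other 9 were taken for their function, with earlier results of these libraries known. For 24 h the cells had received an ethanol extract of one of 4 herbal formulas, or DMSO as vehicle. Okbyeongpung-san was given at 20, 100 and 500 µg/mL with 2 libraries per concentration. Soshiho-tang and Yijin-tang were given at the same concentrations with 3 libraries each. Soyo-san had 1 library per concentration, and the vehicle had 3 libraries. No genotype or second agent separates the groups: all are the same line, grown in L-15 medium with serum. The labels give the vehicle as 0.1% DMSO and the series description as 2%, which was not settled. That description also names a wortmannin control and extracts made with water, and neither was analysed here.

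Heme is made in mitochondria and cytosol by a chain of enzymes that starts with ALAS1, the first and rate-limiting enzyme outside red cells, and ends with FECH, which inserts iron into protoporphyrin. HMOX1 (heme oxygenase 1) opens the heme ring and releases biliverdin, carbon monoxide and ferrous iron. BLVRA and BLVRB reduce biliverdin to bilirubin, and BLVRB also acts as a flavin reductase. Freed iron is stored in ferritin, a shell built from FTH1 (heavy chain, which oxidises iron) and FTL (light chain). TFRC is the transferrin receptor that brings iron into cells, and SLC40A1 (ferroportin) is the iron exporter. BACH1 is a heme-binding repressor that occupies the antioxidant response elements of HMOX1 and the ferritin genes, where NRF2 with a small MAF partner acts as the activator. In astrocytes HMOX1 is known as a gene of the response to oxidative stress and to heme from bleeding.

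Translation and stability of several of these transcripts are controlled through the iron responsive element (IRE), a stem and loop bound by IRP1 and IRP2 when iron is scarce. An IRE in the 5′ UTR holds back translation, and IREs in the 3′ UTR protect the transcript from decay. RNA sequencing therefore sees the TFRC type of control in the level of the message and does not see the ferritin type. The sites are shown because they separate these classes among the members. GENCODE v29 transcripts were searched, on their own strand, for a bulged C, 5 stem bases, the loop CAGTGN (last base not G) and 5 bases that pair with the stem. This found a match in a UTR of 4 of the 10 members and of 127 of 19669 coding genes (0.646%). A match in letters is not a measured site. The sites are written 5′ to 3′ on the transcript strand, as DNA letters on build GRCh38, with the loop in capitals.
FTH1 5′ UTR (chr11:61967574-61967602, minus strand): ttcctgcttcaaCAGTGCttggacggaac
FTL 5′ UTR (chr19:48965335-48965363, plus strand): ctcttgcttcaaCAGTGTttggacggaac
SLC40A1 5′ UTR (chr2:189580661-189580689, minus strand): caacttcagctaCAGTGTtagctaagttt
TFRC 3′ UTR, site 1 (chr3:196050979-196051007, minus strand): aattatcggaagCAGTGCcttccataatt
TFRC 3′ UTR, site 2 (chr3:196050575-196050603, minus strand): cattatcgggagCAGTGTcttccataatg
TFRC 3′ UTR, site 3 (chr3:196050510-196050538, minus strand): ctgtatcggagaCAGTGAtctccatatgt
TFRC 3′ UTR, site 4 (chr3:196050463-196050491, minus strand): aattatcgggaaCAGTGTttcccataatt
The other 6 members, HMOX1, BLVRA, BLVRB, BACH1, FECH and ALAS1, had no such match in a UTR.

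The libraries held 23.9 to 33.1 M estimated counts, with a median of 27.4 M. Whether the libraries of one group are separate cultures is not stated in the labels. The p-values therefore cover the spread among these libraries alone, and that spread may be technical. The vehicle libraries form a library set of their own, so set and vehicle cannot be told apart in any comparison with vehicle, and 500 µg/mL is set against 20 µg/mL of the same extract first. Okbyeongpung-san has 1 library per concentration in each of 2 labelled batches. One Yijin-tang library at 500 µg/mL (replicate 3) had 10.6% of its counts in mitochondrial genes, against 6.70% and 7.35% in the other two and 10.5% to 10.7% in vehicle. Of 6 glial markers, VIM (3719 to 5607 CPM) and SLC1A3 (18.0 to 35.2 CPM) were present, while GFAP, S100B, AQP4 and ALDH1L1 stayed at or below 0.25 CPM in every library, so the defining markers of mature astrocytes were at or near 0. Among 16 markers of other cells, HBB was at 0 in all libraries and HBA1, HBA2 and ALAS2 were at or below 0.201 CPM. The summed level of the 16 markers was 205 to 297 CPM at 500 µg/mL Okbyeongpung-san against 228 to 249 CPM at 20 µg/mL, and 240 to 272 CPM at 500 µg/mL Soshiho-tang against 192 to 250 CPM at 20 µg/mL. Of these 16 markers 6 passed the filter. At 500 against 20 µg/mL 1 of the 6 fell with Okbyeongpung-san, 1 rose and 2 fell with Soshiho-tang, and 2 fell with Yijin-tang. PTPRC, the leukocyte marker CD45, was at 5.84 and 6.37 CPM at 500 µg/mL Okbyeongpung-san against 9.71 and 12.3 CPM at 20 µg/mL, and at 4.20 to 4.78 CPM at 500 µg/mL Soshiho-tang against 12.3 to 12.95 CPM at 20 µg/mL. CD68, a macrophage marker, was at 145 to 237 CPM against 153 to 179 CPM with Okbyeongpung-san, and at 193 to 225 CPM against 122 to 180.0 CPM with Soshiho-tang. The neuronal marker SNAP25 was at 26.1 to 26.5 CPM against 29.2 to 29.9 CPM with Okbyeongpung-san, and at 15.7 to 15.9 CPM against 24.7 to 28.3 CPM with Soshiho-tang. SYT1, also neuronal, was at 24.7 to 25.9 CPM against 28.7 to 31.0 CPM with Okbyeongpung-san. With Soshiho-tang its libraries overlapped (24.6 to 26.2 CPM against 26.0 to 29.2 CPM). Of the glial markers SLC1A3 was at 27.6 to 31.4 CPM against 33.8 to 34.8 CPM and at 18.0 to 20.5 CPM against 25.1 to 29.9 CPM with these 2 extracts. The part of these markers in the results was not tested. In bulk RNA, a change in the number of cells of a type and a change in RNA per cell cannot be told apart.

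HMOX1 (ENSG00000100292, chr22:35380361-35394214 on GRCh38, plus strand) stood near 60 CPM in most groups and several times higher in 2 of them. CPM here is the count divided by the TMM-scaled library size in M. With Okbyeongpung-san HMOX1 was at 410.2 and 463 CPM at 500 µg/mL, against 57.2 and 61.2 CPM at 20 µg/mL. Soshiho-tang libraries held it at 400.3, 438 and 386 CPM at 500 µg/mL, against 59.3, 56.7 and 56.8 CPM at 20 µg/mL. With Yijin-tang it was at 80.1, 80.5 and 78.2 CPM at 500 µg/mL, against 59.4, 58.8 and 63.4 CPM at 20 µg/mL. In all 3 extracts every 500 µg/mL library lay above every 20 µg/mL library. The single Soyo-san libraries held 62.0, 67.2 and 156 CPM at 20, 100 and 500 µg/mL. Vehicle libraries held 60.2, 56.3 and 55.4 CPM, inside the range of the 20 µg/mL libraries or just below it. The ratio of mean levels between 500 and 20 µg/mL was 7.37 with Okbyeongpung-san, 7.09 with Soshiho-tang, 2.51 with Soyo-san and 1.32 with Yijin-tang. In log2 terms the difference was 2.88 ± 0.09 (SE, n = 2 each) with Okbyeongpung-san, 2.83 ± 0.06 (n = 3 each) with Soshiho-tang and 0.39 ± 0.06 (n = 3 each) with Yijin-tang. No test is attached to these values, since the height of HMOX1 at 500 µg/mL led to its choice.

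**Figure D1:**
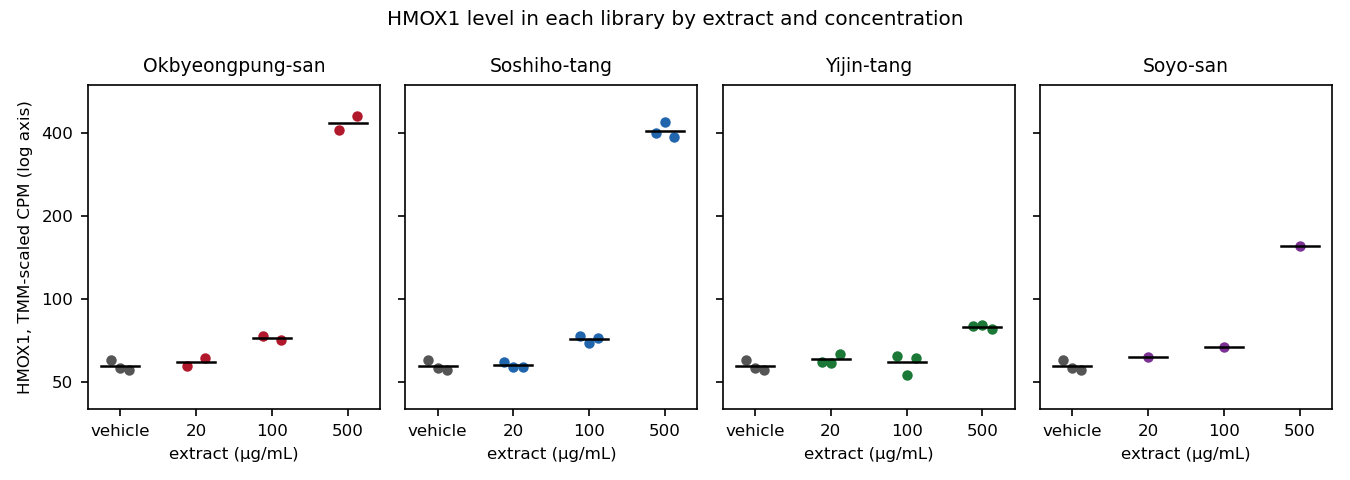
HMOX1 in every library, as TMM-scaled CPM on a log axis, for vehicle and 20, 100 and 500 µg/mL of each extract; points are libraries, bars are group means, and the same 3 vehicle libraries appear in each panel. The 500 µg/mL libraries of Okbyeongpung-san (410.2 and 463 CPM) and Soshiho-tang (386 to 438 CPM) lie far above all others, with the Soyo-san library at 156 CPM between them and Yijin-tang (78.2 to 80.5 CPM).

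Between 20 and 100 µg/mL the step in HMOX1 was small. Soshiho-tang libraries held 73.3, 69.1 and 72.2 CPM at 100 µg/mL, a log2 fold change of 0.32 ± 0.06 over 20 µg/mL with no overlap (n = 3 each; adjusted p = 0.0359, edgeR quasi-likelihood test with Benjamini-Hochberg adjustment). HMOX1 was the only gene called higher in that comparison (0.00593% of 16872 genes tested, and 0.0711% in either direction). As HMOX1 was chosen on its height in libraries of this same series, nothing is read from its standing alone there. The call was lost in 3 kinds of refit with nearly the same fold change: adjusted p was 0.0525 in a fit of 27 libraries, 0.0751 with the compared groups alone, and 0.0922 to 0.272 when any one of the 6 libraries was left out. With Okbyeongpung-san HMOX1 was at 73.6 and 71.3 CPM at 100 µg/mL, also above both 20 µg/mL libraries (0.28 ± 0.08, n = 2 each). Its adjusted p was 1, and edgeR called 0 of 16643 genes there (0%), with 154 at an unadjusted p under 0.05 and 0 with DESeq2. With Yijin-tang it was at 62.5, 53.0 and 61.5 CPM at 100 µg/mL, overlapping the 20 µg/mL libraries (−0.04 ± 0.06; 0.00593% of genes called).

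Ordered by mean, HMOX1 ran from vehicle (57.3 CPM) through Soshiho-tang at 20 µg/mL, Yijin-tang at 100 µg/mL, the lowest Okbyeongpung-san group, Yijin-tang at 20 µg/mL and Soyo-san at 20 µg/mL (62.0 CPM), and each of these groups overlapped its neighbour. Next came Soyo-san at 100 µg/mL (67.2 CPM), then Soshiho-tang and Okbyeongpung-san at 100 µg/mL (71.6 and 72.4 CPM), whose libraries overlapped. Yijin-tang at 500 µg/mL (79.6 CPM) stood below Soyo-san at 500 µg/mL, and the highest pair, Soshiho-tang and Okbyeongpung-san at 500 µg/mL (408 and 437 CPM), overlapped. At 500 µg/mL Okbyeongpung-san minus Soshiho-tang was 0.10 ± 0.06 in log2 units (n = 2 and 3), while Okbyeongpung-san minus Yijin-tang was 2.46 ± 0.06 and Soshiho-tang minus Yijin-tang was 2.36 ± 0.06. At 100 µg/mL the same differences were 0.01 ± 0.07, 0.29 ± 0.07 and 0.28 ± 0.06, and at 20 µg/mL all 3 lay within 0.1 of 0. Among all members at 100 µg/mL, HMOX1 was the 1 called, higher with Soshiho-tang than with Yijin-tang (0.753% of all genes called). HMOX1 was chosen on its height at 500 µg/mL in these libraries, so nothing is read from that count of 1. That count was 0 with the compared groups alone and without any one of 3 libraries (Soshiho-tang replicate 1 or 3, or Yijin-tang replicate 2). The pairs with Okbyeongpung-san had 0 members called by edgeR at 100 µg/mL, where 0.552% of genes were called against Soshiho-tang and 0.207% against Yijin-tang, and 0 at 20 µg/mL, where 0.144% and 0% were called. With the labelled batch as a term, a setting chosen after seeing the data, 4 members were called against Yijin-tang at 100 µg/mL (3318 genes in place of 36) and 2 at 20 µg/mL (1521 in place of 0). Without Okbyeongpung-san replicate 3 at 100 µg/mL the calls over all genes were 346 in place of 96 against Soshiho-tang and 1080 in place of 36 against Yijin-tang, and without replicate 2 they were 29 and 0. Within each labelled batch of Okbyeongpung-san the ratio of 500 to 20 µg/mL was 7.16 (batch E) and 7.56 (batch D).

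The biliverdin reductases were also higher at 500 µg/mL of Okbyeongpung-san and Soshiho-tang, over a smaller range than HMOX1. BLVRB (chr19:40447765-40465840) was at 42.6 and 51.6 CPM at 500 µg/mL Okbyeongpung-san, against 17.8 and 21.4 CPM at 20 µg/mL (log2 fold change 1.26 ± 0.15, adjusted p = 0.000768, edgeR). Soshiho-tang libraries held 39.1, 34.3 and 31.0 CPM at 500 µg/mL, against 21.9, 19.7 and 22.03 CPM at 20 µg/mL (0.72 ± 0.11, adjusted p = 2.73e-05). The groups did not overlap in either extract. Yijin-tang libraries of both concentrations overlapped at 24.9 to 28.3 CPM and 22.8 to 25.6 CPM (0.10 ± 0.11, adjusted p = 0.704). BLVRB was the only member called different between Okbyeongpung-san and Soshiho-tang at 500 µg/mL (0.44 ± 0.13, adjusted p = 0.0163; 18.3% of all genes were called, 9.94% higher and 8.34% lower). That call was lost without Okbyeongpung-san replicate 3 (adjusted p = 0.198) or Soshiho-tang replicate 3 (adjusted p = 0.0782), and with the labelled batch as a term (0.30, adjusted p = 0.0839), where FECH (0.18, adjusted p = 0.0222) and TFRC (0.20, adjusted p = 0.0486) were called higher in its place.

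BLVRA (chr7:43758680-43807342), the reductase for the main isomer of biliverdin, was at 50.2 and 50.4 CPM at 500 µg/mL Okbyeongpung-san, against 33.7 and 39.2 CPM at 20 µg/mL (0.46 ± 0.09, adjusted p = 0.00892, and 0.00128 with the labelled batch as a term). That call was lost without Okbyeongpung-san replicate 2 at 20 µg/mL (adjusted p = 0.0795) and with the compared groups alone (adjusted p = 0.068). Soshiho-tang gave 50.3, 50.4 and 48.8 CPM at 500 µg/mL, against 38.6, 39.5 and 37.2 CPM at 20 µg/mL (0.37 ± 0.06, adjusted p = 3.13e-05). In both extracts the 500 µg/mL libraries agreed to within 2 CPM and stood clear of the others. With Yijin-tang it was at 41.1 to 43.4 CPM at 500 µg/mL and 34.8 to 42.6 CPM at 20 µg/mL, which overlap.

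Both ferritin chains were higher at 500 µg/mL of the same 2 extracts. FTH1 (chr11:61959718-61967660) was at 2349.7 and 2915 CPM with 500 µg/mL Okbyeongpung-san, against 1103 and 1428 CPM at 20 µg/mL (1.05 ± 0.14, adjusted p = 0.00179). With 500 µg/mL Soshiho-tang it was at 2604, 2803.5 and 2459 CPM, against 1229, 1076 and 1379.7 CPM at 20 µg/mL (1.09 ± 0.08, adjusted p = 8.92e-10). No library at 20 µg/mL came near the lowest at 500 µg/mL. Yijin-tang held 1397, 1435 and 1566 CPM at 500 µg/mL, against 1365, 1354 and 1390 CPM at 20 µg/mL, apart by a small gap that was not called (0.09 ± 0.08, adjusted p = 0.608).

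FTL (chr19:48965301-48966878) was at 2381 and 3431 CPM with 500 µg/mL Okbyeongpung-san, against 1129.8 and 1431 CPM at 20 µg/mL (1.18 ± 0.18, adjusted p = 0.00328). With 500 µg/mL Soshiho-tang it was at 2944, 3116 and 2607 CPM, against 1116, 1085.5 and 1321 CPM at 20 µg/mL (1.30 ± 0.08, adjusted p = 5.02e-11). In Okbyeongpung-san the batch D library was the higher one at each concentration, and the ratio of 500 to 20 µg/mL was 2.11 in batch E and 2.40 in batch D. The Soyo-san libraries held 1230.2, 1485 and 2165 CPM at 20, 100 and 500 µg/mL. Yijin-tang was already the highest group at 20 µg/mL (1537 ± 61.0 CPM, SD, n = 3), and Soshiho-tang minus Yijin-tang there was −0.40 ± 0.08 (adjusted p = 0.0405; 0.130% of genes called). That difference was lost with the compared groups alone, in the fit of 27 libraries and when any of 5 of the 6 libraries was left out.

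Per kilobase of exon, FTL exceeded FTH1 in every library, by a ratio of 2.10 to 2.89. The ratio was 2.34 to 2.72 at 500 µg/mL Okbyeongpung-san against 2.32 to 2.37 at 20 µg/mL, and 2.45 to 2.61 at 500 µg/mL Soshiho-tang against 2.10 to 2.33 at 20 µg/mL. The heavy and light chains thus stayed within a narrow range of each other on the per-length scale while both were raised. Both genes have processed pseudogenes, and the sums of the 25 FTH1 and 16 FTL pseudogene entries came to 0.163% to 0.529% and 0.0607% to 0.138% of their parent's count. FTH1 also overlaps BEST1 on the opposite strand, and the strand setting of the counting is not given in the sources used here.

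**Figure D2:**
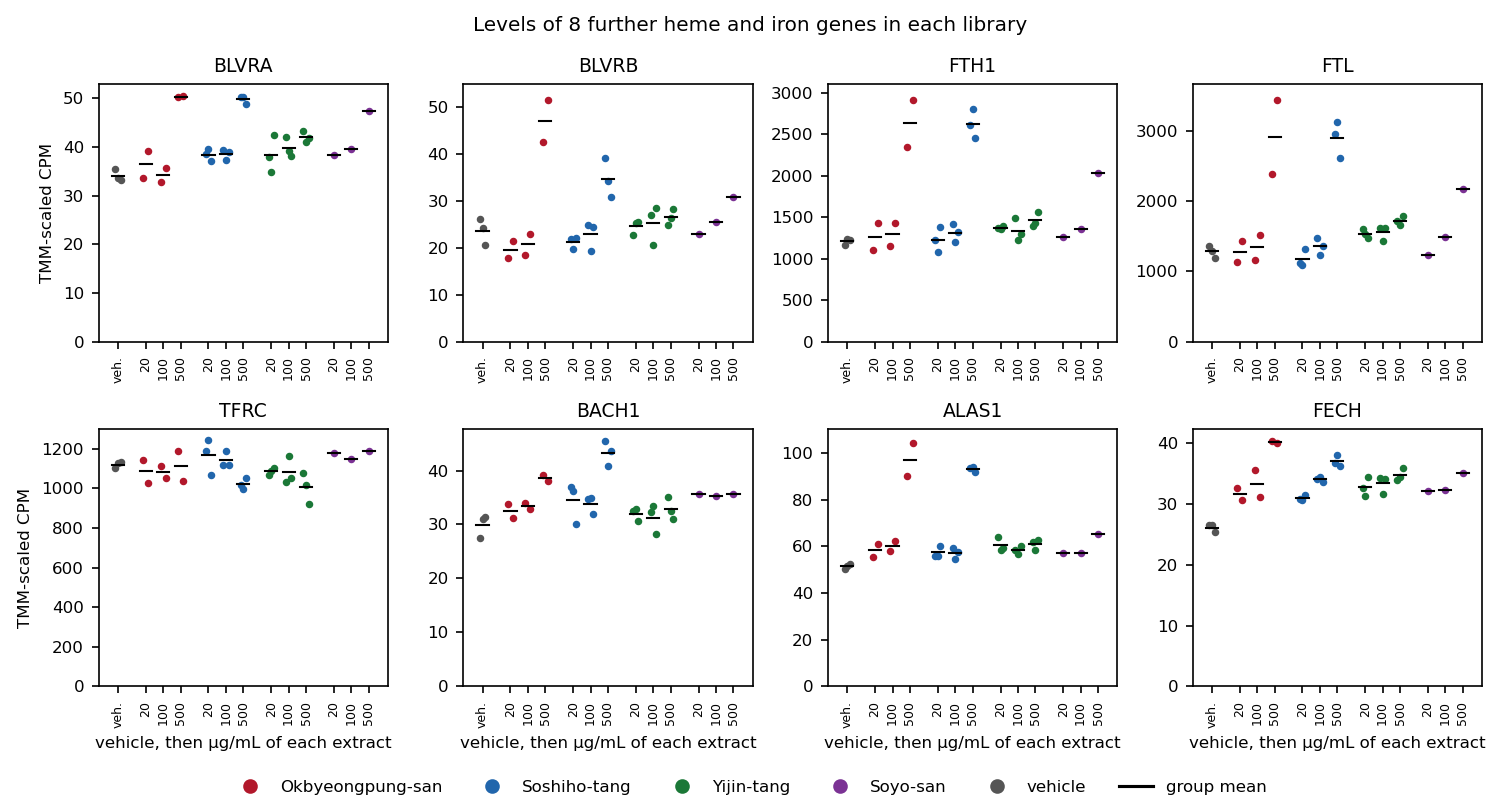
TMM-scaled CPM of 8 members in every library, for vehicle and then 20, 100 and 500 µg/mL of each extract; points are libraries, black bars are group means and each axis starts at 0. BLVRA, BLVRB, FTH1, FTL and ALAS1 are highest at 500 µg/mL of Okbyeongpung-san and Soshiho-tang, while TFRC stays between 923 and 1246 CPM in all 30 libraries.

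TFRC (chr3:196027183-196082189), whose 3′ UTR holds the 4 IRE matches shown above, moved little. With Okbyeongpung-san it was at 1190.1 and 1037 CPM at 500 µg/mL, against 1144 and 1030.3 CPM at 20 µg/mL (0.03 ± 0.09, adjusted p = 0.865). With Soshiho-tang TFRC was at 1018, 996 and 1054 CPM at 500 µg/mL, against 1190, 1246 and 1069.9 CPM at 20 µg/mL. That was a log2 fold change of −0.19 ± 0.06 with a gap of less than 20 CPM between the groups (adjusted p = 0.0249). The call was lost when either replicate 1 or replicate 2 of either group was left out (adjusted p = 0.0654 to 0.133). With Yijin-tang the groups overlapped (−0.12 ± 0.06, adjusted p = 0.326). Over all 30 libraries the highest TFRC level was 1246 CPM and the lowest 923 CPM, and its median was 1103 CPM.

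SLC40A1 (chr2:189560579-189583758), the only known cellular iron exporter of vertebrates, was barely detected. The 30 libraries together held 28 reads of it, 12 libraries had 0, and no library had more than 3. It failed the filter on low counts, so 9 of the 10 members were tested, and no fold change is given for it.

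BACH1 (chr21:29194071-29630751), the repressor of HMOX1, was at 39.2 and 38.1 CPM at 500 µg/mL Okbyeongpung-san, against 33.8 and 31.2 CPM at 20 µg/mL (0.25 ± 0.09, adjusted p = 0.106, and 0.0442 with the labelled batch as a term). Soshiho-tang libraries held BACH1 at 45.4, 40.8 and 43.5 CPM at 500 µg/mL, against 37.0, 36.2 and 30.2 CPM at 20 µg/mL (0.33 ± 0.08, adjusted p = 0.0026). The message of the repressor was thus not lower where HMOX1 was high. Yijin-tang libraries overlapped (0.04 ± 0.08). BACH1 shares its interval with 8 other annotated genes, among them GRIK1 on the opposite strand.

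ALAS1 (chr3:52198086-52214327) was also higher at 500 µg/mL of Okbyeongpung-san and Soshiho-tang, where HMOX1 was highest. It was at 90.2 and 104 CPM with 500 µg/mL Okbyeongpung-san, against 55.7 and 61.2 CPM at 20 µg/mL (0.73 ± 0.09, adjusted p = 0.000871). With 500 µg/mL Soshiho-tang it was at 93.6, 94.1 and 91.8 CPM, against 56.1, 56.0 and 60.3 CPM at 20 µg/mL (0.70 ± 0.05, adjusted p = 1.69e-10). The message of the enzyme that starts heme synthesis was therefore higher in the same libraries as that of the enzyme that breaks heme down. With Yijin-tang it was at 61.8, 58.3 and 62.7 CPM at 500 µg/mL, against 64.3, 58.5 and 59.4 CPM at 20 µg/mL, a difference of 0.00 ± 0.05. Soyo-san at 500 µg/mL (65.3 CPM) lay close to its own lower concentrations (57.1 and 57.0 CPM).

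FECH (chr18:57548283-57586772), the last enzyme of the pathway, was at 40.3 and 40.01 CPM at 500 µg/mL Okbyeongpung-san, against 32.6 and 30.6 CPM at 20 µg/mL (0.34 ± 0.08, adjusted p = 0.0281, and 0.00551 with the labelled batch as a term). That call was lost in each refit without 1 of the 4 libraries (adjusted p = 0.0539 to 0.12) and with the compared groups alone (0.137). Soshiho-tang libraries held FECH at 36.7, 38.0 and 36.2 CPM at 500 µg/mL, against 30.8, 30.6 and 31.4 CPM at 20 µg/mL (0.26 ± 0.05, adjusted p = 0.000145). FECH also differed from vehicle at the lowest concentration. At 20 µg/mL it was at 30.6 to 31.4 CPM with Soshiho-tang and 31.4 to 34.3 CPM with Yijin-tang, against 25.3 to 26.6 CPM in vehicle (0.23 ± 0.05, adjusted p = 0.00141, and 0.32 ± 0.05, adjusted p = 9.79e-05). Okbyeongpung-san at 20 µg/mL was also above every vehicle library (0.29 ± 0.08), with an adjusted p of 0.0755.

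Set against the whole table, 8 of the 9 tested members were higher and TFRC was lower at 500 µg/mL Soshiho-tang than at 20 µg/mL, where 28.9% of all genes were called, 14.6% higher and 14.2% lower. With Okbyeongpung-san 7 of 9 were higher and 0 lower, where 10.3% of all genes were called, 5.21% higher and 5.10% lower. With Yijin-tang HMOX1 was the 1 member called, where 5.64% of all genes were called, 2.70% higher and 2.94% lower. HMOX1 is in each of these counts through its choice, and the list was drawn with results of these libraries known, so nothing is read from the counts. The median log2 fold change of the 9 members was 0.73 with Okbyeongpung-san, 0.70 with Soshiho-tang and 0.09 with Yijin-tang, beside medians over all genes within 0.01 of 0.

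**Figure D3:**
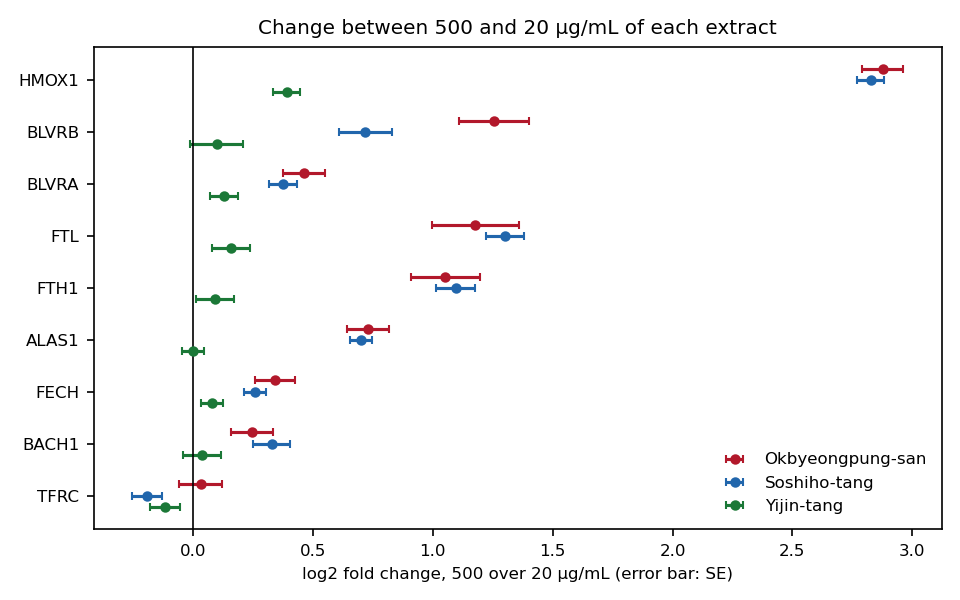
Log2 fold change between 500 and 20 µg/mL for the 9 tested members in the 3 replicated extracts; error bars are the SE of the edgeR fit. HMOX1 lies at 2.88, 2.83 and 0.39, the ferritin chains between 1.05 and 1.30 in Okbyeongpung-san and Soshiho-tang, and all Yijin-tang points but HMOX1 lie between −0.12 and 0.16.

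The difference between extracts in this dose effect was tested for the other members as an interaction contrast, in the fit of 27 libraries for Okbyeongpung-san and in that of 21 libraries for Soshiho-tang against Yijin-tang. Okbyeongpung-san exceeded Yijin-tang by 1.16 ± 0.19 for BLVRB (adjusted p = 0.000188), 1.02 ± 0.18 for FTL (adjusted p = 0.000444) and 0.96 ± 0.16 for FTH1 (adjusted p = 0.00025). It also exceeded Yijin-tang for ALAS1, BLVRA and FECH, so that 7 of 9 members counting HMOX1 were called where 10.7% of all genes were, 5.59% above 0 and 5.11% below. With the labelled batch as a term BLVRA and FECH stayed called in this contrast (adjusted p = 0.0173 and 0.0178, edgeR). In 10 refits without 1 library the calls for BLVRA and FECH were each lost in 6, with adjusted p up to 0.212 and 0.138. Soshiho-tang exceeded Yijin-tang by 1.14 ± 0.11 for FTL (adjusted p = 2.31e-07), 1.00 ± 0.11 for FTH1 (adjusted p = 1.59e-06) and 0.70 ± 0.07 for ALAS1 (adjusted p = 1.51e-07). BLVRB and BLVRA were called as well, making 6 of 9 members counting HMOX1, where 13.6% of all genes were called, 6.63% above 0 and 6.99% below. The BLVRA call (adjusted p = 0.0492) was lost in 10 of 12 refits without 1 library (adjusted p up to 0.181). Between Okbyeongpung-san and Soshiho-tang 0 of 9 members were called by edgeR and 0 by DESeq2, and 2 had an unadjusted p under 0.05. Of all genes 7.43% were called, 4.25% above 0 and 3.17% below. The largest such difference among the other members was 0.54 ± 0.19 for BLVRB (adjusted p = 0.0826), which was called with the replicate block (0.54 ± 0.16, adjusted p = 0.0447) and with the labelled batch as a term (0.55 ± 0.17, adjusted p = 0.0396). The differences for FTH1, FTL and ALAS1 were −0.04 ± 0.16, −0.12 ± 0.18 and 0.04 ± 0.09. A p that misses the threshold does not show that the extracts act alike. After adjustment over all genes even 0.54 ± 0.19 for BLVRB was not called, so differences of more than 2 SE could be missed. These SEs are from the fit without the labelled batch. With the labelled batch as a term they were 0.12 for FTH1 and 0.12 for FTL.

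Directly at 500 µg/mL, 7 of 9 members were higher with Okbyeongpung-san than with Yijin-tang (21.7% of all genes called, 11.4% higher and 10.3% lower), and 7 of 9 were higher with Soshiho-tang than with Yijin-tang (25.2% called, 12.5% higher and 12.8% lower). HMOX1 is in both counts through its choice. FTL differed by 0.76 ± 0.13 (adjusted p = 8.75e-05) and 0.74 ± 0.08 (adjusted p = 2.19e-07) in these comparisons, and ALAS1 by 0.68 ± 0.06 (adjusted p = 1.11e-08) and 0.61 ± 0.05 (adjusted p = 1.3e-09). BLVRB differed by 0.39 ± 0.11 between Soshiho-tang and Yijin-tang (adjusted p = 0.00885), a call lost without Soshiho-tang replicate 1 at 500 µg/mL (adjusted p = 0.0702). TFRC did not reach the threshold in either (0.15 ± 0.08 and 0.02 ± 0.06). With the labelled batch as a term TFRC was called higher with Okbyeongpung-san than with Yijin-tang (0.23, adjusted p = 0.0258, edgeR). So was BACH1 (0.28, adjusted p = 0.0273). Okbyeongpung-san and Yijin-tang belong to different library sets, so extract and set cannot be told apart in that comparison.

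Against vehicle, 8 of 9 were higher at 500 µg/mL Okbyeongpung-san, where 24.7% of all genes were called, 13.3% higher and 11.4% lower. At 500 µg/mL Soshiho-tang 8 were higher, where 43.9% were called, 22.8% higher and 21.1% lower. At 500 µg/mL Yijin-tang 6 were higher and TFRC lower, where 31.3% were called, 16.0% higher and 15.2% lower. HMOX1 is in each of these counts at 500 µg/mL through its choice. At 20 µg/mL 0 members were called with Okbyeongpung-san by edgeR, where 2.24% of all genes were called, 1.18% higher and 1.06% lower. An unadjusted p under 0.05 was found for 2 members. With the labelled batch as a term 2 were called, BLVRB lower (−0.40 ± 0.10, adjusted p = 0.0213, edgeR) and FECH higher (0.34 ± 0.07, adjusted p = 0.00944). That fit called 2992 genes in place of 372. FECH and ALAS1 were called higher with Soshiho-tang, where 21.8% were called, 11.3% higher and 10.5% lower. FECH, ALAS1 and FTL were called higher with Yijin-tang, where 19.8% were called, 10.6% higher and 9.20% lower. The count with Soshiho-tang was 1 in place of 2 when any vehicle library was left out. These comparisons share the 3 vehicle libraries. At 20 µg/mL ALAS1 averaged 58.4 ± 3.90 CPM with Okbyeongpung-san (SD, n = 2), 57.5 ± 2.45 CPM in the Soshiho-tang libraries and 60.7 ± 3.11 CPM in those of Yijin-tang (n = 3 each), against 51.4 ± 1.10 CPM in vehicle (n = 3).

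Other genes of heme and iron were taken by list, at 500 against 20 µg/mL and without the members. The counts stand beside the shares over all genes given above, which were 5.21% higher and 5.10% lower with Okbyeongpung-san, 14.6% and 14.2% with Soshiho-tang, and 2.70% and 2.94% with Yijin-tang. The lists were drawn with results of these libraries known, so nothing particular to a list is read from its counts. In heme breakdown and transport 3 of 11 tested genes rose and 1 fell with Okbyeongpung-san, 4 of 10 rose with Soshiho-tang and 1 of 10 rose with Yijin-tang. SLC48A1, which carries heme out of endolysosomes, rose in all 3 extracts. It was at 44.3 ± 7.06 CPM at 500 µg/mL Okbyeongpung-san against 24.8 ± 0.414 CPM at 20 µg/mL (0.83 ± 0.11, adjusted p = 0.00169). Its log2 fold change was 0.51 ± 0.07 with Soshiho-tang (adjusted p = 6.33e-06) and 0.32 ± 0.07 with Yijin-tang (adjusted p = 0.00716). HEBP1, a heme-binding protein, rose by 0.61 ± 0.13 with Okbyeongpung-san and 0.60 ± 0.10 with Soshiho-tang. PGRMC1, a heme-binding membrane protein, was at 252 ± 54.1 CPM at 500 µg/mL Okbyeongpung-san against 173 ± 5.61 CPM at 20 µg/mL (0.54 ± 0.12, adjusted p = 0.0172). With Soshiho-tang PGRMC1 was at 162 ± 2.88 CPM against 171 ± 10.6 CPM, and the difference between the 2 dose effects was 0.62 ± 0.12 (adjusted p = 0.0024). SLC46A1, a folate carrier that also moves heme, fell with Okbyeongpung-san (−0.42 ± 0.12, adjusted p = 0.0483). FLVCR2, a transporter of choline and heme, rose with Soshiho-tang to 2.20 ± 0.229 CPM at 500 µg/mL against 1.14 ± 0.241 CPM at 20 µg/mL (0.94 ± 0.23, adjusted p = 0.00305), and POR, which feeds electrons to heme oxygenase, rose by 0.30 ± 0.05.

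Of 10 tested genes of heme synthesis beside ALAS1 and FECH, 0 were called with Okbyeongpung-san, 1 rose and 1 fell with Soshiho-tang, and 1 fell with Yijin-tang, where 5.21%, 14.6% and 2.70% of all genes rose and 5.10%, 14.2% and 2.94% fell. The one that rose with Soshiho-tang was SLC25A38, the mitochondrial glycine carrier that feeds ALAS (0.36 ± 0.07, adjusted p = 0.000725), and ALAD, the second enzyme, fell (−0.19 ± 0.05, adjusted p = 0.00681). With Yijin-tang it was UROS, which closes the porphyrin ring (−0.23 ± 0.05, adjusted p = 0.0138). With ALAS1 and FECH the list medians were 0.16, 0.09 and −0.02 for Okbyeongpung-san, Soshiho-tang and Yijin-tang, beside medians over all genes within 0.01 of 0.

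In iron uptake and reduction without TFRC, 1 of 9 tested genes rose with Okbyeongpung-san, 5 rose and 1 fell with Soshiho-tang, and 2 rose and 1 fell with Yijin-tang, where 5.21%, 14.6% and 2.70% of all genes rose. STEAP1, of the STEAP metalloreductase family, was at 44.1 ± 0.671 CPM at 500 µg/mL Okbyeongpung-san against 28.6 ± 4.11 CPM at 20 µg/mL (0.62 ± 0.13, adjusted p = 0.0125). With Soshiho-tang it was at 56.3 ± 0.605 CPM against 30.3 ± 1.30 CPM (0.90 ± 0.06, adjusted p = 5.53e-10). SLC11A2 (DMT1), which moves ferrous iron across endosomal membranes, rose with Soshiho-tang (0.40 ± 0.05, adjusted p = 6.59e-07) and was at 0.07 ± 0.07 with Okbyeongpung-san. The difference between these dose effects, Okbyeongpung-san minus Soshiho-tang, was −0.32 ± 0.07 (adjusted p = 0.00803). STEAP2 rose with Soshiho-tang (0.36 ± 0.06) and Yijin-tang (0.32 ± 0.06), and SLC39A8, a zinc and iron importer, fell with Soshiho-tang (−0.28 ± 0.08). With Yijin-tang the melanotransferrin gene MELTF rose (0.43 ± 0.12, adjusted p = 0.045), and the ferrireductase STEAP3 fell to 115 ± 2.64 CPM at 500 µg/mL against 139 ± 3.46 CPM at 20 µg/mL (−0.28 ± 0.05, adjusted p = 0.00106).

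Of 4 tested genes of iron storage beyond the ferritin chains, 0 were called with Okbyeongpung-san, 2 fell with Soshiho-tang and 1 fell with Yijin-tang, where 5.10%, 14.2% and 2.94% of all genes fell. NCOA4, the receptor that takes ferritin to lysosomes, fell with Soshiho-tang (−0.19 ± 0.06, adjusted p = 0.0149), and PCBP2, an iron chaperone, fell with Soshiho-tang (−0.14 ± 0.05) and Yijin-tang (−0.18 ± 0.05). In iron export and systemic control 3 of 9 listed genes passed the filter, of which 2 rose with Okbyeongpung-san and 0 were called with the other two extracts. With Okbyeongpung-san HFE, a partner of the transferrin receptor, rose to 40.5 ± 2.29 CPM at 500 µg/mL against 28.97 ± 0.486 CPM at 20 µg/mL (0.48 ± 0.07, adjusted p = 0.00326). BMP6, the ligand that induces hepcidin in liver, rose to 1.90 ± 0.229 CPM against 0.811 ± 0.176 CPM (1.21 ± 0.27, adjusted p = 0.0201).

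The sensor FBXL5 and both mitoferrins had dose effects that differed between Okbyeongpung-san and Soshiho-tang. FBXL5, the iron-sensing ubiquitin ligase subunit that removes IRP2, was at 42.8 ± 1.01 CPM at 500 µg/mL Okbyeongpung-san against 43.0 ± 2.58 CPM at 20 µg/mL (−0.01 ± 0.08). With Soshiho-tang it was at 71.9 ± 0.794 CPM against 41.4 ± 1.61 CPM (0.80 ± 0.05, adjusted p = 1.95e-10), and with Yijin-tang at 47.7 ± 1.37 CPM against 39.8 ± 2.21 CPM (0.26 ± 0.05, adjusted p = 0.00635). The dose effect of Okbyeongpung-san minus that of Soshiho-tang was −0.80 ± 0.09 (adjusted p = 2.51e-06). IREB2, which encodes IRP2 itself, fell with Soshiho-tang (−0.20 ± 0.06, adjusted p = 0.0103), and CISD2 and EPAS1 rose (0.29 ± 0.06 and 0.28 ± 0.07). For these 3 the dose effects of Okbyeongpung-san and Soshiho-tang did not differ past the threshold (adjusted p = 0.0833 for IREB2, 0.411 for CISD2 and 0.706 for EPAS1). In all, 3 of 6 sensing genes rose and 1 fell with Soshiho-tang, 1 rose with Yijin-tang and 0 were called with Okbyeongpung-san, where 14.6%, 2.70% and 5.21% of all genes rose.

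Both mitoferrins, the carriers that bring iron into mitochondria, changed with Soshiho-tang in opposite directions. SLC25A28 (mitoferrin 2) was at 20.8 ± 3.39 CPM at 500 µg/mL Okbyeongpung-san against 20.5 ± 3.68 CPM at 20 µg/mL, and at 35.4 ± 2.02 CPM against 20.9 ± 2.12 CPM with Soshiho-tang (0.76 ± 0.08, adjusted p = 1.72e-07). SLC25A37 (mitoferrin 1) was at 151 ± 6.58 CPM against 135 ± 1.76 CPM with Okbyeongpung-san (0.15 ± 0.07, adjusted p = 0.202), and at 101 ± 2.85 CPM against 142 ± 0.696 CPM with Soshiho-tang (−0.49 ± 0.06, adjusted p = 6.1e-07). The differences between the dose effects, Okbyeongpung-san minus Soshiho-tang, were −0.74 ± 0.16 (adjusted p = 0.0046) and 0.65 ± 0.09 (adjusted p = 3.95e-05). Of 21 tested genes of mitochondrial iron and iron-sulfur assembly, 1 rose with Okbyeongpung-san, 4 rose and 1 fell with Soshiho-tang and 0 were called with Yijin-tang. These counts are near the shares over all genes. The chaperone HSPA9 was the 1 in Okbyeongpung-san (0.48 ± 0.07) and was also among the 4 in Soshiho-tang (0.59 ± 0.05), with the ferredoxin FDX2 (0.48 ± 0.09). Neither differed between these extracts past the threshold (adjusted p = 0.506 and 0.434).

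**Figure D4:**
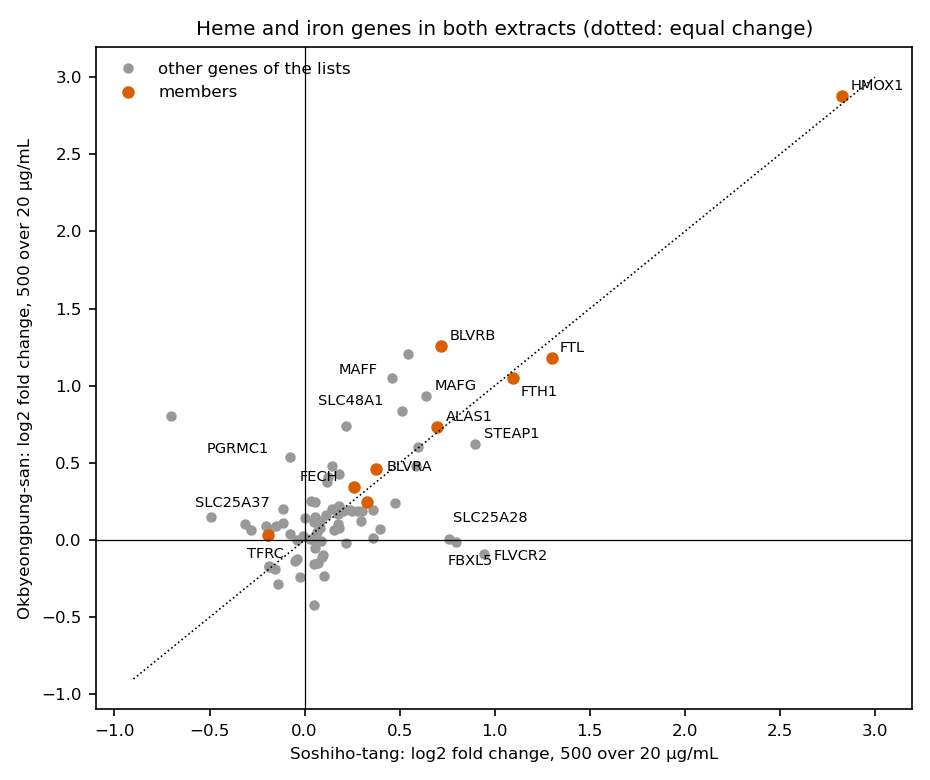
Log2 fold change between 500 and 20 µg/mL for 81 tested genes of the heme and iron lists, Soshiho-tang on the horizontal and Okbyeongpung-san on the vertical axis; orange points are the 9 tested members and the dotted line marks equal change. HMOX1, FTH1, FTL, ALAS1 and BLVRA lie near the line, while FBXL5 and SLC25A28 (0.80 and 0.76 with Soshiho-tang, −0.01 and 0.01 with Okbyeongpung-san) lie on the horizontal axis.

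Among the regulators that share the antioxidant response element with BACH1, the small MAF genes moved. MAFG rose to 117 ± 1.79 CPM at 500 µg/mL Okbyeongpung-san against 61.4 ± 0.493 CPM at 20 µg/mL (0.93 ± 0.08, adjusted p = 0.000187), and to 104 ± 5.59 CPM against 66.9 ± 4.60 CPM with Soshiho-tang (0.64 ± 0.07, adjusted p = 2.34e-07). MAFF rose with Okbyeongpung-san (1.05 ± 0.15) and with Soshiho-tang (0.46 ± 0.07), by 0.59 ± 0.15 more with Okbyeongpung-san (adjusted p = 0.0168). MAFK rose with Okbyeongpung-san (0.74 ± 0.10) and was at 0.22 ± 0.09 with Soshiho-tang (adjusted p = 0.0699), a difference of 0.52 ± 0.14 (adjusted p = 0.0273). NR1D2, a nuclear receptor that binds heme, rose with Soshiho-tang (0.17 ± 0.05). Of 9 tested regulators beside BACH1, 3 rose with Okbyeongpung-san, 3 with Soshiho-tang and 0 with Yijin-tang, where 5.21%, 14.6% and 2.70% of all genes rose, and none of the 9 fell. The letters TGACNNNGC of the element, on either strand, occurred in the RefSeq promoter window (250 bases before to 50 after the start) of 1 of the 8 members with an entry, FECH, and in 13.35% of 35116 promoters. HMOX1 and FTH1 had no entry, so their promoters were not searched. The enhancers of HMOX1 that carry this element lie further upstream than that window.

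Of 21 known NRF2 targets outside heme and iron, 15 rose with Okbyeongpung-san, 15 with Soshiho-tang and 8 with Yijin-tang, and none fell, where 5.21%, 14.6% and 2.70% of all genes rose. The median log2 fold changes of the 21 were 0.66, 0.39 and 0.11. SQSTM1, the autophagy receptor p62, was at 1848 ± 33.6 CPM at 500 µg/mL Okbyeongpung-san against 524 ± 46.2 CPM at 20 µg/mL, and at 1547 ± 59.7 CPM against 537 ± 23.2 CPM with Soshiho-tang. With Yijin-tang it was at 574 ± 31.8 CPM against 543 ± 26.1 CPM (0.07 ± 0.05). OSGIN1, a growth inhibitor induced by oxidative stress, rose in all 3 (1.29 ± 0.15, 1.35 ± 0.07 and 0.38 ± 0.07). The cystine carrier SLC7A11 did so as well (1.08 ± 0.13, 1.15 ± 0.07 and 0.32 ± 0.07), as did GCLM, a subunit of the enzyme that starts glutathione synthesis (0.91 ± 0.09, 0.53 ± 0.06 and 0.34 ± 0.06), and NQO1, a quinone reductase (0.59 ± 0.09, 0.62 ± 0.06 and 0.33 ± 0.06). PIR and SRXN1 rose further with Okbyeongpung-san (1.44 ± 0.14 and 1.22 ± 0.08) than with Soshiho-tang (0.58 ± 0.08 and 0.66 ± 0.06), with differences of 0.87 ± 0.14 and 0.57 ± 0.10 (adjusted p = 0.00027 and 0.000643).

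Across all 30 libraries, 11151 genes with a mean of at least 5 CPM were ranked by the Pearson correlation of log2(CPM + 1) with HMOX1. The libraries share one cell line, and the 500 µg/mL libraries set most of the range, so the ranks are a description. The 6 non-members most like HMOX1 were SQSTM1 (r = 0.983), the glycerol kinase GK (0.976), the lipid droplet coat gene PLIN2 (0.972), the asparagine synthetase ASNS (0.969), MRNIP (0.963) and C9orf72 (0.960). MRNIP overlaps SQSTM1 on the opposite strand, so its reads and those of SQSTM1 may not be separable. ALAS1 (r = 0.958) and FTH1 (0.958) followed at ranks 8 and 9, FTL at rank 54 (0.916), BLVRA at 164 and BLVRB at 173. BACH1 (0.778) and FECH (0.703) were further down, and TFRC had r = −0.263. PLIN2 was at 151 CPM at 500 µg/mL Okbyeongpung-san, 227 CPM with Soshiho-tang, 71.1 CPM with Yijin-tang and 115 CPM with Soyo-san, against 59.3 CPM in vehicle, whereas SQSTM1 was higher with Okbyeongpung-san than with Soshiho-tang.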

How the data were processed

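The deposited values are expected counts (estimated counts) of Ensembl genes. The submitters' processing notes name Trim Galore 0.6.5, FastQC 0.11.9, STAR 2.7.3a and RSEM 1.3.3, with hg38/GRCh38 as the build, as the authors' tools. RSEM splits reads that match several genes, which matters for genes with pseudogenes. Annotation release and strand setting are not given in the sources used here. Per the labels' protocols the libraries were directional, read as 100-base paired ends. Of 60675 entries 57055 matched GENCODE v29, which gave symbols, coordinates, exon lengths and IRE sites. The table also holds 30 blank columns, which were not used. Counts were rounded and tested with edgeR 4.0.16 (limma 3.58.1, R 4.3.3): quasi-likelihood F test, TMM, filterByExpr (minimum count 10, total 15), Benjamini-Hochberg over all genes, called at an adjusted p under 0.05. One fit held vehicle, Soshiho-tang and Yijin-tang (21 libraries, 16872 genes), one vehicle and Okbyeongpung-san (9 libraries, 16643 genes), and one all 27 replicated libraries (17396 genes) for Okbyeongpung-san against the others. Soyo-san was not tested. Per the titles, a replicate number of Okbyeongpung-san is a labelled batch, so its libraries are paired across concentrations (deviations correlated at 0.0854 for 500 with 20 µg/mL and 0.256 for 100 with 20 µg/mL). The numbers of vehicle, Soshiho-tang and Yijin-tang, all from 1 batch, did not pair libraries (−0.14 to 0.0775). The tests were checked on simulated data. Alternatives were DESeq2 1.42.0, RLE scaling, no filter, a replicate block, the labelled batch as a term (added after seeing the data), other sample sets and leaving out each library.

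The members and gene lists were chosen with earlier results of these data known. From each list the text names up to 4 changed non-members of at least 1 CPM with the largest fold change per extract. Every member is named, and likeness names the top 6 non-members.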

Additional observations from a re-analysis of the deposited data

Results flagged for a closer look

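The change from 20 to 500 µg/mL differed between extracts, by a test of the difference itself (edgeR, interaction contrast, adjusted over all genes), for 6 members between Okbyeongpung-san and Yijin-tang and for 5 between Soshiho-tang and Yijin-tang. Okbyeongpung-san minus Yijin-tang was 0.73 for ALAS1, 0.27 for FECH (adjusted p = 0.0392), 1.02 for FTL, 1.16 for BLVRB, 0.34 for BLVRA (adjusted p = 0.0312) and 0.96 for FTH1. Soshiho-tang minus Yijin-tang was 0.70 for ALAS1, 1.14 for FTL, 0.62 for BLVRB, 0.25 for BLVRA (adjusted p = 0.0492) and 1.00 for FTH1. In refits without 1 library 5 to 7 members, HMOX1 included, were called in each of these contrasts. The calls for ALAS1, FTL, BLVRB and FTH1 held in every such refit, while that for BLVRA was lost in 6 of 10 for Okbyeongpung-san and in 10 of 12 for Soshiho-tang, and that for FECH in 6 of 10 for Okbyeongpung-san. All are log2 units, and in each the extract named first had the larger rise. HMOX1 was left out because its height chose the set. The 3 Yijin-tang libraries at 500 µg/mL include the one with 10.6% mitochondrial counts. That library was among those left out in turn, so the calls for ALAS1, FTL, BLVRB and FTH1 held without it. Its part in the differences for BLVRA and FECH is not given here.

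Between Okbyeongpung-san and Soshiho-tang the flagged genes were non-members. Okbyeongpung-san minus Soshiho-tang was −0.80 for FBXL5, −0.74 for SLC25A28 and −0.32 for SLC11A2, so the rise was larger with Soshiho-tang. It was 0.65 for SLC25A37, which fell with Soshiho-tang, and 0.62 for PGRMC1. It was 0.59 for MAFF, 0.52 for MAFK, 0.29 for SQSTM1 (adjusted p = 0.0489), 0.38 for GCLM, 0.87 for PIR and 0.57 for SRXN1. Okbyeongpung-san has 2 libraries per concentration, from different labelled batches, and the extracts belong to different library sets, so extract and set cannot be told apart in these differences beyond the shared comparison with 20 µg/mL.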

How the results depend on the processing

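No value changed sign past its threshold under the alternatives run. Of the recomputed member counts and Soyo-san levels 254 were labelled the same and 40 moved. A count was labelled the same when it equalled the reported one or was within 1.5 times of it. For a Soyo-san level the margin was the interval of its own count. Within that margin, Yijin-tang at 500 µg/mL against vehicle had 6 higher and 1 lower, and 5 to 7 called without 1 library. At 500 over 20 µg/mL Okbyeongpung-san the calls for BLVRA and FECH were lost with the compared groups alone and held with the labelled batch as a term. Larger moves in the number of members called were as follows. Soshiho-tang at 100 over 20 µg/mL had 1, and 0 in the fit of 27 libraries, with the compared groups alone and in all refits without 1 library (0 to 0). Soshiho-tang at 20 µg/mL against vehicle had 2, and 1 in the fit of 27 libraries and with the compared groups alone (1 to 3 without 1 library). Okbyeongpung-san at 20 µg/mL against vehicle had 0, and 1 in the fit of 27 libraries. Soshiho-tang against Yijin-tang had 1 at 100 µg/mL and 0 with the compared groups alone (0 to 1 without 1 library), and 1 at 20 µg/mL and 0 in the fit of 27 libraries and with the compared groups alone (0 to 1). Okbyeongpung-san against Yijin-tang at 100 µg/mL had 0, 1 with DESeq2 and 2 without the filter on low counts (0 to 1). Without 1 library, Yijin-tang at 500 over 20 µg/mL had 1 to 2 (2 without replicate 3 at 20 µg/mL, where BLVRA was called, adjusted p = 0.0397) and Okbyeongpung-san against Soshiho-tang at 500 µg/mL had 0 to 1. The dose effect of Okbyeongpung-san minus Soshiho-tang had 0, and 1 without the filter on low counts. The replicate numbers pair only the Okbyeongpung-san libraries, by labelled batch. With the replicate block that count was 1, BLVRB, and the counts of the other comparisons stayed within 1.5 times. With the labelled batch as a term, chosen after seeing the data, it was also 1. The same term gave 2 members in place of 0 when vehicle was compared with 20 µg/mL Okbyeongpung-san, 2 in place of 1 for Okbyeongpung-san against Soshiho-tang at 500 µg/mL, and against Yijin-tang 4 in place of 0 at 100 µg/mL and 2 in place of 0 at 20 µg/mL. Over all genes, Okbyeongpung-san at 500 over 20 µg/mL gave 1716 calls, against 3082 in the fit of 27 libraries, 2604 without the filter, 523 with the compared groups alone, 3251 with the labelled batch as a term and 630 to 1966 without 1 of the 4 libraries. Okbyeongpung-san at 20 µg/mL against vehicle gave 372, against 640 with DESeq2, 1442 without the filter, 2162 in the fit of 27 libraries, 797 with the compared groups alone, 40 with the replicate block, 2992 with the labelled batch as a term and as few as 9 without 1 library. Yijin-tang at 500 over 20 µg/mL gave 951, and 308 with the compared groups alone. With the compared groups alone, Okbyeongpung-san at 500 µg/mL gave 2065 in place of 3181 against Soshiho-tang and 1571 in place of 3778 against Yijin-tang. On library totals without TMM the Soyo-san log2 ratio of HMOX1 to vehicle was 1.51 in place of 1.43 at 500 µg/mL and 0.19 in place of 0.11 at 20 µg/mL. Refits without 1 library leave some groups with a single library, assumed to vary like the others. The causes of these shifts were not tested.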

Other observations

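Soyo-san, with 1 library per concentration and no test, held HMOX1, BLVRA, BLVRB, FTH1, FTL, ALAS1 and BACH1 above all Yijin-tang libraries and below all Okbyeongpung-san and Soshiho-tang libraries at 500 µg/mL. FTH1 was at 1265, 1362 and 2032 CPM at 20, 100 and 500 µg/mL, and FTL at 1230.2, 1485 and 2165 CPM. BLVRA was at 38.3, 39.7 and 47.3 CPM and BLVRB at 23.0, 25.5 and 30.8 CPM. For ALAS1, BACH1 and BLVRB the gap to the Yijin-tang libraries was under 3 CPM. BLVRB (30.79 CPM) and BLVRA (47.3 CPM) also lay just below the lowest Soshiho-tang libraries (30.95 and 48.8 CPM). BACH1 (35.6 CPM) lay close below the lowest Okbyeongpung-san library (38.1 CPM). The ALAS1 ratio of 500 to 20 µg/mL was 1.14 with Soyo-san, while that of HMOX1 was 2.51 and that of FTL 1.76. BACH1 (35.7, 35.2 and 35.6 CPM) and TFRC (1181, 1149 and 1189.5 CPM) were level, and FECH was at 32.1, 32.2 and 35.1 CPM.

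The ratio to vehicle gave the same order for HMOX1. At 500 µg/mL it was 7.62 with Okbyeongpung-san, 7.13 with Soshiho-tang, 2.72 with Soyo-san and 1.39 with Yijin-tang. FTL with Yijin-tang was at 1.34 times vehicle at 500 µg/mL and was already called higher at 20 µg/mL (0.26 ± 0.08 in log2 units, adjusted p = 0.0255, edgeR), where HMOX1 was not (0.07 ± 0.06).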
